A study of Mus musculus with 2 samples.

Results

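Smooth muscle cells were the smallest of the 20 clusters of mononucleated cells from dystrophic mouse muscle, with 75 of 17813 cells. They were taken as the cells that the deposited table numbers as cluster 19, of which 21 came from the mdx library and 54 from the cKO library. The table names no cell types. This cluster is called smooth muscle because its cell numbers in both genotypes equal the published ones for that cell type and those of no other cluster, and the other clusters are named by the same match of cell numbers, single or summed. The markers usually used for these cells, Myh11 (the heavy chain of smooth muscle myosin), Acta2 (smooth muscle actin) and Rgs5 (a regulator of G protein signaling in cells of the vessel wall), have no values in the table, so the name was not checked against expression. Rgs5 is also high in pericytes, and whether the cluster held pericytes was not tested.

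Both genotypes carried the mdx mutation of the dystrophin gene on a BL/10 background, and all mice were male. In cKO mice the exons of Spp1 that hold its start codon were flanked by loxP sites and removed by Cre from the Lyz2 gene, which is active in myeloid cells such as macrophages and neutrophils and not a driver for smooth muscle. Muscles of the fore and hind limbs and the diaphragm of 3 mice per genotype were pooled, and the age of the mice is written both as 3 months and as 12 weeks. The genotype label of the mdx library reads as a wild type control, which was taken to mean wild type for Spp1. In the table the libraries are called Pos and Neg. These names were taken as Cre-positive (cKO) and Cre-negative (mdx), which fits the published total of cells of each genotype.

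Smooth muscle cells form the wall of arteries, arterioles and veins around the endothelial lining and contract to set blood flow. They are held in the tissue by a basement membrane and matrix, and in the healthy adult vessel they rarely divide, in contrast to muscle stem cells, which enter the cell cycle when myofibers degenerate. Endothelial cells (cluster 16, 275 cells) and muscle stem cells (cluster 18, 113 cells) are therefore set beside them here as another vascular type and as a type that cycles in dystrophic muscle.

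Each genotype gave 1 library, and the mice are not told apart in the table, so no test was run and cells are not replicates. Intervals are exact (Clopper-Pearson) 95% binomial intervals, or 95% log intervals for a ratio of shares, and cover counting error only. Where a share is 0, the share that 3 counts would give is printed as its limit, followed by the upper bound of the exact interval. The libraries held 43185486 UMIs (unique molecular identifiers, which tag single transcripts) in 7156 mdx cells and 59240298 UMIs in 10657 cKO cells. Of the cell barcodes, 20 occurred in both libraries, and none of those belonged to a smooth muscle cell.

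Counted over whole libraries, smooth muscle was 0.293% of mdx (21 of 7156 cells, 0.182 to 0.448) and 0.507% of cKO (54 of 10657 cells, 0.381 to 0.661), which is 1.73 times as high in cKO (1.04 to 2.86). That denominator holds, among others, stromal cluster 6 with 1277 mdx and 43 cKO cells. Among smooth muscle and endothelial cells alone, the smooth muscle share was 16.7% in mdx (21 of 126 cells, 10.6 to 24.3) and 24.1% in cKO (54 of 224 cells, 18.7 to 30.3). For every 100 endothelial cells there were 20 smooth muscle cells in mdx and 31.8 in cKO. The ratio of shares within these vascular cells was 1.45 (0.918 to 2.28), so the counts do not separate it from equal shares. With muscle stem cells added to the denominator the shares were 13.3% for mdx (8.42 to 19.6) and 17.7% for cKO (13.6 to 22.5). Their ratio was 1.33 (0.836 to 2.12). Over cells outside the immune clusters, which are the stromal clusters, cluster 6 among them, the red blood cell lineage and the 3 types above, they were 0.848% (0.526 to 1.29) and 1.55% (1.16 to 2.01), and their ratio was 1.82 (1.10 to 3.01).

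The direction was the same in each of these denominators, but the interval lay above 1 only over all cells and over cells outside the immune clusters. Outside the immune clusters, cluster 6 made up 1277 of 2476 mdx cells and 43 of 3493 cKO cells. With cluster 6 taken out of that denominator, the smooth muscle share is lower in cKO than in mdx. The direction there thus depends on whether cluster 6 is counted. Over all cells, the interval included 1 among those with at least 500 genes (1.63, 0.977 to 2.70). Under filters added with the values in view, it also did so among cells with at least 1% mitochondrial UMIs (1.64, 0.968 to 2.79) and without cluster 6 (1.42, 0.861 to 2.36). With 1 library per genotype the preparation and the genotype cannot be told apart.

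Smooth muscle cells held few UMIs. In mdx they ranged from 979 to 7259 UMIs per cell, with a median of 3067 and quartiles of 1337 and 4257. In cKO they ranged from 503 to 16109, with a median of 3307.5 and quartiles of 1643 and 5598. Among the medians of the 20 clusters this was the 15th highest in mdx and the 14th highest in cKO, between T cell cluster 5 (3451) and stromal cluster 6 (3011) in mdx and between neutrophil cluster 9 (3310.5) and T cell cluster 8 (2337) in cKO. The 75 cells together gave 70182 UMIs in mdx and 229922 in cKO, or 0.163% and 0.388% of all UMIs of the library.

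Both comparison types had the higher median in each library. The endothelial median was 3595 UMIs in mdx (quartiles 1513 and 6111) and 5343.5 in cKO (2659 and 9375), so the smooth muscle median was 0.853 times as high in mdx and 0.619 times in cKO. Muscle stem cells had medians of 4564 (2977 and 9874) and 6850 (2562 and 15413), and the smooth muscle median was 0.672 and 0.483 times as high. The quartile ranges of smooth muscle and endothelial cells overlapped widely. No mdx smooth muscle cell reached 8000 UMIs (0 of 21, limit of 3 counts 14.3%, exact bound 16.1%), against 20% of endothelial cells (12.8 to 28.9) and 34.4% of muscle stem cells (18.6 to 53.2). In cKO 7 of 54 smooth muscle cells did, or 12.96% (5.37 to 24.9), against 31.8% (24.8 to 39.3) and 38.3% (27.7 to 49.7). Over all cells of the library 22.7% in mdx and 19.2% in cKO reached 8000 UMIs, and the cKO value lies within the smooth muscle interval. Under 1000 UMIs lay 14.3% of smooth muscle cells in mdx (3.05 to 36.3) and 14.8% in cKO (6.62 to 27.1), against 11.4% (6.05 to 19.1) and 5.88% (2.86 to 10.6) of endothelial cells. At 16000 UMIs or more lay 1 smooth muscle cell, from cKO, against 3 mdx and 5 cKO endothelial cells and 7 mdx and 20 cKO muscle stem cells.

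**Figure D1:**
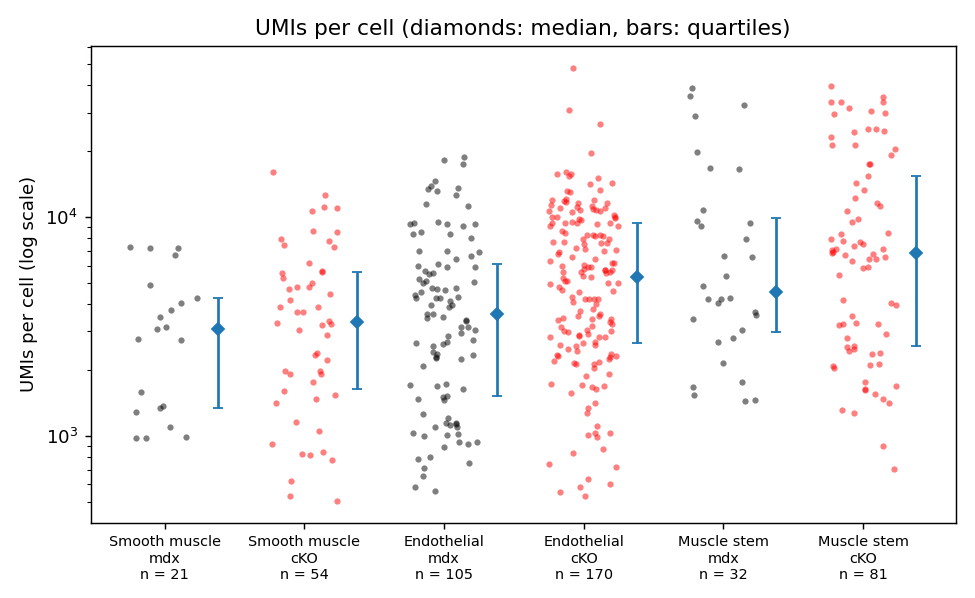
UMIs per cell (y axis, log scale) for smooth muscle, endothelial and muscle stem cells in mdx (black) and cKO (red), where each point is a cell, diamonds are medians and bars run between quartiles. Smooth muscle cells end at 7259 UMIs in mdx and 16109 in cKO, and muscle stem cells reach 38728 and 39940.

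Between the libraries the smooth muscle median was 1.08 times as high in cKO as in mdx for UMIs and 1.05 times for genes. Clusters 16, 17, 18 and 19 were the only 4 of the 20 clusters with a higher median of UMIs in cKO, and the medians of genes were higher in cKO in these 4 as well and in no other. The other 3 of them lay further from 1, at 1.49 for endothelial cells, 1.46 for stromal cluster 17 and 1.5 for muscle stem cells, while the remaining 16 clusters ranged from 0.410 to 0.796. Of the 20 clusters, smooth muscle was nearest to equal UMIs in the libraries. The upper part of its distribution differed more than the middle: means were 3342 UMIs in mdx and 4258 in cKO, 1.27 times as high. When cKO cells outside the UMI range of the mdx cells were dropped, a filter added with the values in view, the medians of UMIs stood at 1.05 to 1.

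**Figure D2:**
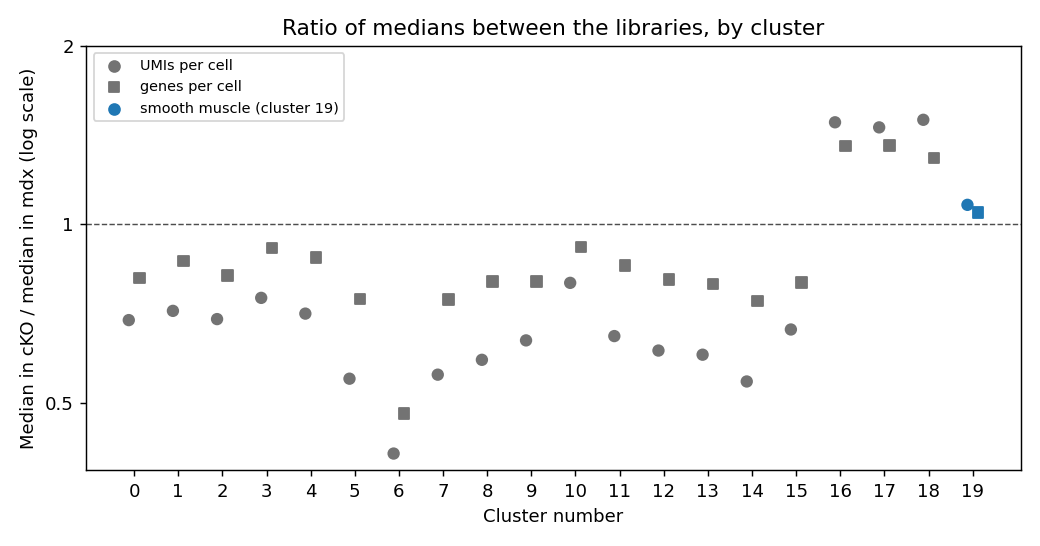
Median per cell in cKO divided by the median in mdx (y axis, log scale) for UMIs (circles) and genes (squares) in each of the 20 clusters (x axis), with smooth muscle in blue and a dashed line at equal medians. Clusters 16 to 19 lie above the line, and smooth muscle, at 1.08 and 1.05, is the nearest of them to it.

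In mdx, smooth muscle cells had a median of 1482 genes per cell, with a range of 575 to 2721. In cKO the median was 1550 and the range 300 to 4275. Endothelial cells had medians of 1586 and 2148.5 genes and muscle stem cells of 1918 and 2482, so smooth muscle cells were lowest of the 3 types in both libraries. Among the 20 clusters they were 12th highest in genes in both libraries and, as given above, 15th and 14th in UMIs. Genes per 100 UMIs had a median of 48.7 in mdx, the highest of the 20 clusters, and 46.8 in cKO, the 4th highest. Endothelial cells followed at 44.7 in mdx. Shallow cells detect more genes per UMI, and within smooth muscle cells UMIs and genes had a Spearman correlation of 0.984 in mdx (21 cells) and 0.990 in cKO (54 cells), so the types were also compared in bands of UMIs.

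Within bands of UMIs the smooth muscle medians of genes lay above the endothelial ones in the 4 bands given next, with overlapping ranges. From 2000 to 4000 UMIs the median was 1482.5 genes in 6 mdx smooth muscle cells, 1365 in 26 endothelial cells and 1303 in 7 muscle stem cells. In cKO the same band gave 1500 genes in 13 smooth muscle cells, 1389.5 in 42 endothelial cells and 1266.5 in 18 muscle stem cells. From 4000 to 8000 UMIs it was 2313 (7 cells), 2054 (27) and 1988 (9) in mdx, and 2337 (15), 2233 (49) and 2482 (21) in cKO. Smooth muscle stood first among the clusters with at least 5 cells in both mdx bands, 2nd highest in the lower cKO band, below cluster 11 at 1526 genes, and 3rd highest in the upper one. From 8000 to 16000 UMIs, where cKO had 6 smooth muscle cells, the order was the other way, with medians of 3452.5 genes in smooth muscle and 3510 in 49 endothelial cells. Ranges of single cells ran from 1427 to 1809 genes in smooth muscle and 948 to 1822 in endothelial cells in the lower mdx band. Neutrophil cluster 7, at the other end of the lower band, had medians of 850 genes in mdx and 839 in cKO. The bands are wide, so cells within one could still differ in UMIs. From 2000 to 4000 UMIs, genes per 100 UMIs had medians of 48.5 in smooth muscle and 46.7 in endothelial cells in mdx. In cKO they were 48.3 and 49.1. From 4000 to 8000 UMIs they were 37.5 and 38.9 in mdx and 41.3 and 40.1 in cKO, so by this measure the order differed between bands.

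**Figure D3:**
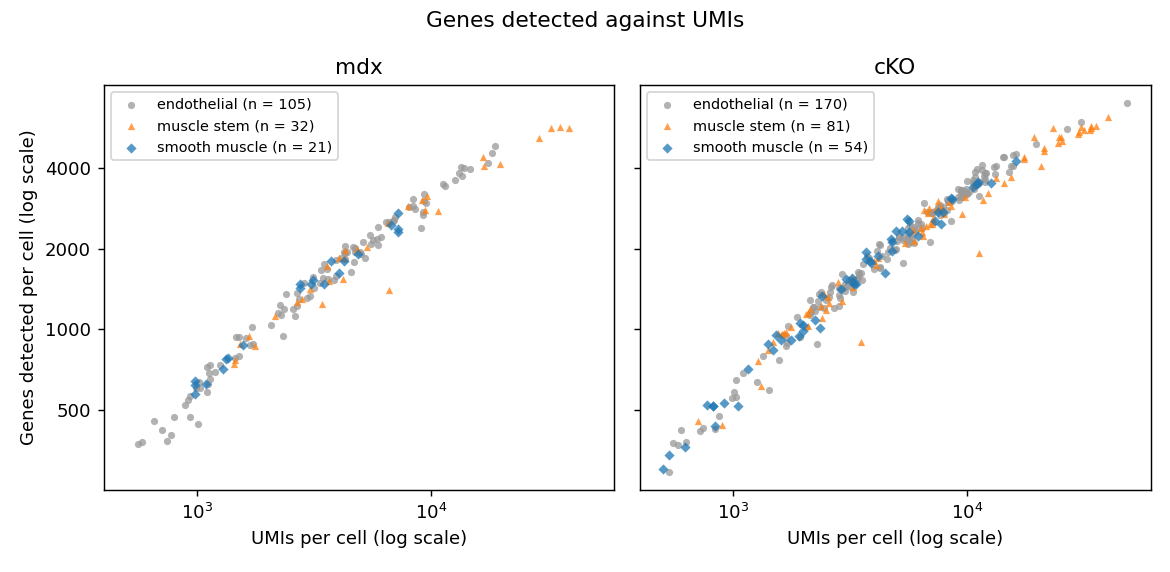
Genes detected per cell (y axis, log scale) against UMIs per cell (x axis, log scale) in mdx and cKO for endothelial cells (grey circles), muscle stem cells (orange triangles) and smooth muscle cells (blue diamonds), where each point is a cell. Smooth muscle cells lie along the band of the endothelial cells and stop at lower UMIs.

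The mitochondrial share of UMIs was high in smooth muscle cells. It ranged from 0.0735% to 9.89% in mdx, with a median of 5.89% and quartiles of 4.91% and 8.42%. In cKO it ranged from 0.121% to 9.79%, with a median of 5.57% and quartiles of 3.82% and 6.73%. Of the 20 clusters this was the second highest median in mdx, after muscle stem cells (6.13%), and the third highest in cKO, after muscle stem cells (5.96%) and B cell cluster 10 (5.77%). Medians over all cells were 3.57% and 3.60%. Endothelial cells had 4.41% in mdx (quartiles 2.75 and 6.44) and 3.95% in cKO (3.04 and 5.50), so the smooth muscle median was 1.34 and 1.41 times as high, with overlapping quartile ranges. Against muscle stem cells it was 0.962 and 0.934 times as high, and in mdx that order turned with the mean over cells (1.03) and without the 5% of cells with the most UMIs (1.001). Between the libraries the cKO median was 0.944 times the mdx one.

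The upper tail is bounded by the table itself, in which no cell exceeds 9.99% mitochondrial UMIs, so no median here includes cells above that. Above 8% lay 7 of 21 mdx smooth muscle cells, or 33.3% (14.6 to 57.0), the highest share of the 20 clusters, and 5 of 54 cKO cells, or 9.26% (3.08 to 20.3), the 3rd highest there. Endothelial cells had 12.4% (6.76 to 20.2) and 8.24% (4.58 to 13.4) there, and all cells of the library 2.29% and 2.42%. The limit of 8% was chosen after seeing the data. The 7 mdx cells were not the shallow ones alone: the 3 cells with the most UMIs (7206, 7223 and 7259) held 9.30%, 8.42% and 9.57%, while 3 others, with 981, 1291 and 1337 UMIs, held 9.89%, 9.84% and 9.42%. From 4000 to 8000 UMIs the mdx median was 8.17% in smooth muscle cells (7 cells, 2.51 to 9.57), 2.99% in endothelial cells (27 cells) and 5.65% in muscle stem cells (9 cells). In cKO these values were 5.99%, 3.76% and 7.44%. From 2000 to 4000 UMIs they were 5.28%, 3.84% and 6.90% in mdx and 5.62%, 4.35% and 6.45% in cKO. Smooth muscle lay above endothelial cells in each of these 4 sets of cells. The other bands that held smooth muscle cells had the same order except at both ends in cKO. Under 1000 UMIs the cKO medians were 0.382% in 8 smooth muscle cells and 3.05% in 10 endothelial cells. At 16000 UMIs or more they were 3.16% in 1 smooth muscle cell and 3.86% in 5 endothelial cells.

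A few smooth muscle cells had almost no mitochondrial UMIs. Under 1%, a limit chosen after seeing the data, lay 2 of the 21 cells from mdx (9.52%, 1.17 to 30.4) and 5 of the 54 from cKO (9.26%, 3.08 to 20.3). They held 0.0735% and 0.101% in mdx and 0.121% to 0.388% in cKO, while the next smooth muscle cells up had 2.51% in mdx and 2.29% in cKO, so a gap parted them from the rest. Their UMIs were low, with 987 and 1361 in mdx and 503 to 840 in cKO, where they were 5 of the 8 smooth muscle cells under 1000 UMIs, or 62.5% (24.5 to 91.5). In mdx 1 of the 3 smooth muscle cells under 1000 UMIs was under 1% mitochondrial. Among endothelial cells under 1000 UMIs this held for 3 of 10 in cKO (30%, 6.67 to 65.2) and 1 of 12 in mdx (8.33%, 0.211 to 38.5). Of all cKO cells under 1000 UMIs, 41.9% were under 1% mitochondrial, which lies within the smooth muscle interval. Those cells include neutrophils of cluster 7, which had a lower quartile of 921.5 UMIs in cKO. Endothelial cells were under 1% in 1.90% of cells (0.232 to 6.71) in mdx and 2.35% (0.645 to 5.91) in cKO. All cells of the library were under 1% in 12.9% and 8.21%. These include neutrophil clusters 7 and 9, whose median mitochondrial shares were 0.377% and 0.832% in mdx and 0.457% and 0.895% in cKO. The library shares are therefore no measure of how common such cells are in other types. A higher share than in smooth muscle was found in 3 clusters in mdx and 4 in cKO, and a lower one in 16 and 15. Without these 7 cells the smooth muscle medians were 6.0% mitochondrial and 3149 UMIs in mdx and 5.85% and 3695 UMIs in cKO. Some smooth muscle cells of low UMIs did not have a low mitochondrial share. The mdx cells with 979, 981, 1092, 1291 and 1337 UMIs held 7.76% to 9.89%. Over all cells, those under 1000 UMIs were under 1% mitochondrial more often, in 23.3% of mdx and 41.9% of cKO cells. The shares without a limit on UMIs were 12.9% and 8.21%. Across all smooth muscle cells UMIs and mitochondrial share had a Spearman correlation of 0.0312 in mdx (21 cells) and 0.219 in cKO (54 cells). Whether the 7 were intact cells was not tested.

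**Figure D4:**
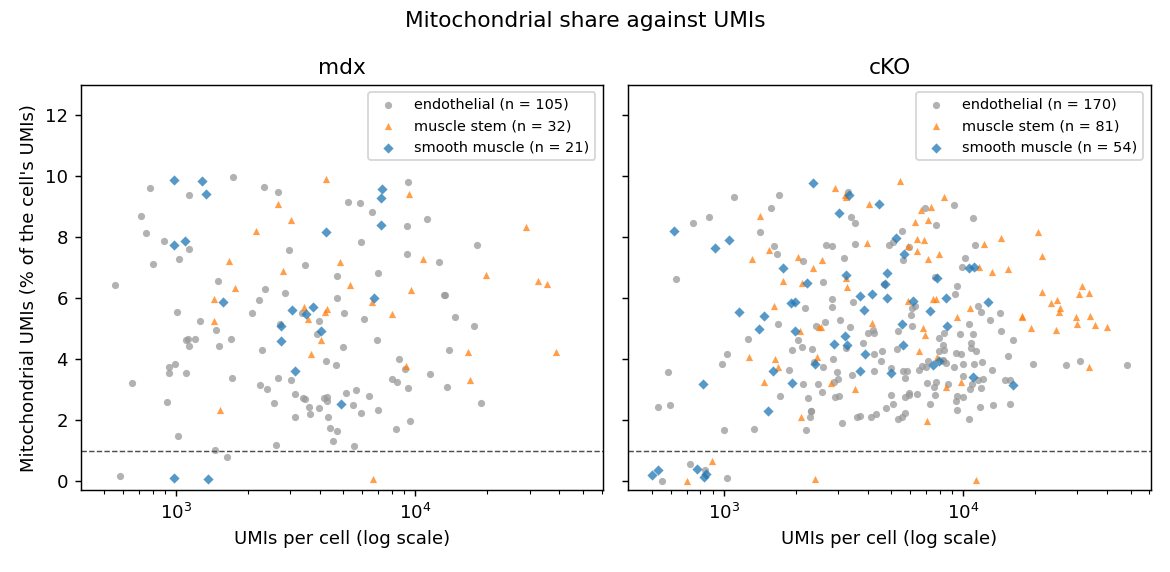
Mitochondrial UMIs as a percent of the UMIs of a cell (y axis) against UMIs per cell (x axis, log scale) in mdx and cKO for endothelial (grey circles), muscle stem (orange triangles) and smooth muscle cells (blue diamonds), where each point is a cell and the dashed line marks 1%. Below the line lie 2 mdx and 5 cKO smooth muscle cells, all of low UMIs, and above 8% lie 7 and 5.

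The S and G2M scores, as Seurat usually computes them, give the expression of genes of DNA replication (S phase) and of mitosis (G2 and M phase) relative to control genes, so that a resting cell has scores near or below 0. In mdx the S score of smooth muscle cells ranged from -0.129 to 0.0436 with a median of -0.0781, and in cKO from -0.123 to 0.286 with a median of -0.0688. Both medians were the lowest S scores of the 20 clusters, by small steps, as the next were -0.0717 (stromal cluster 0) in mdx and -0.0667 (stromal cluster 2) in cKO. The G2M score had medians of -0.0773 in mdx (range -0.165 to 0.0208) and -0.0778 in cKO (-0.170 to 0.938), the 14th highest of 20 in each library. Both scores were below 0 in 18 of 21 mdx cells, or 85.7% (63.7 to 97.0), and 48 of 54 cKO cells, or 88.9% (77.4 to 95.8). Over all cells of the library this held for 54.6% and 65.6%.

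High scores, above 0.2 on the higher of the 2, were nearly absent. None of the 21 mdx smooth muscle cells had one (limit of 3 counts 14.3%, exact bound 16.1%), and the highest score among them was 0.0436. In cKO 1 of 54 cells did, or 1.85% (0.0469 to 9.89). Muscle stem cells had high scores in 4 of 32 mdx cells, or 12.5% (3.51 to 29.0), and in 22 of 81 cKO cells, or 27.2% (17.9 to 38.2). Endothelial cells had them in 0 of 105 mdx cells (limit of 3 counts 2.86%, exact bound 3.45%), and in 4 of 170 cKO cells, or 2.35% (0.645 to 5.91). Over all cells, which include cycling macrophages and neutrophil precursors, the shares were 10.7% (9.97 to 11.4) and 8.46% (7.94 to 9.01). By this share, in mdx 16 of the 20 clusters had a higher value than smooth muscle and none a lower one, and in cKO 10 had a higher and 9 a lower one.

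The cKO smooth muscle interval therefore overlapped that of endothelial cells and lay below that of muscle stem cells, while in mdx the 21 cells could not show a difference from either. Thresholds of 0.1 and 0.3 gave 0 of 21 cells in mdx and 2 and 1 of 54 cells in cKO. The single high cell had a score of 0.286 for S and 0.938 for G2M, 16109 UMIs and 4275 genes, the most of all 75 smooth muscle cells, and 3.16% mitochondrial UMIs. Whether it was a dividing smooth muscle cell or 2 cells under 1 barcode was not tested. The next highest score was 0.109 for G2M in a cell with 824 UMIs and 0.121% mitochondrial UMIs.

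**Figure D5:**
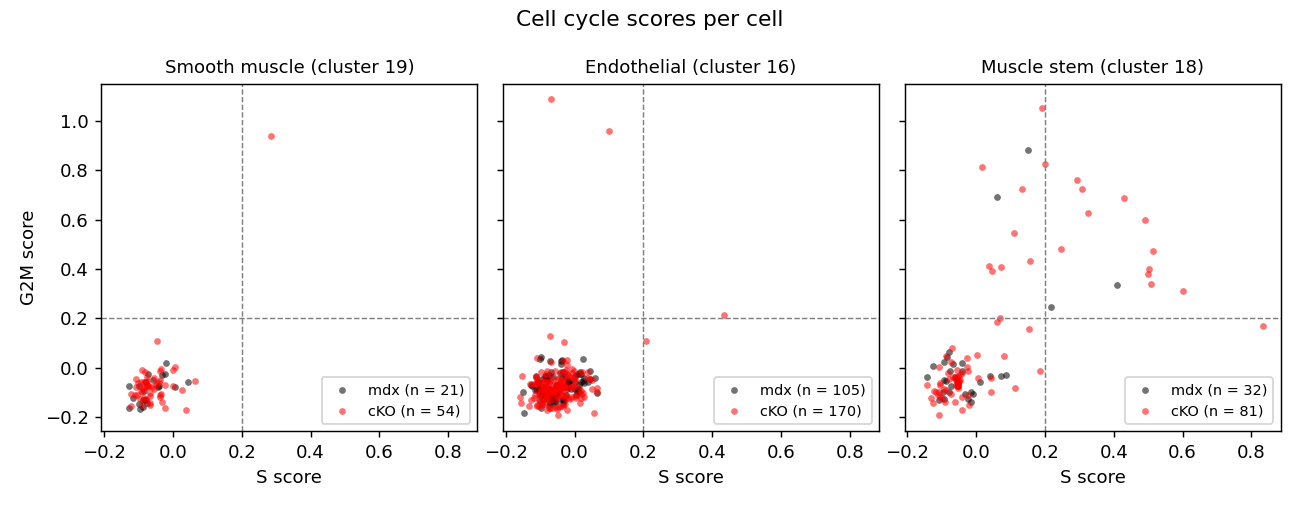
G2M score (y axis) against S score (x axis) per cell for smooth muscle, endothelial and muscle stem cells in mdx (black) and cKO (red), with dashed lines at 0.2. Of the smooth muscle cells 1 cKO cell lies beyond a line, and of the muscle stem cells 4 mdx and 22 cKO cells do.

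Depth differed between the types as well. Endothelial and muscle stem cells held more UMIs than smooth muscle cells, and the scores could not be set to 1 depth without counts per gene. In muscle stem cells with at least 16000 UMIs, 4 of 7 mdx and 14 of 20 cKO cells had a high score, and smooth muscle had 1 cell there. From 4000 to 8000 UMIs a high score was found in 0 of 7 mdx and 0 of 15 cKO smooth muscle cells, in 0 of 9 and 3 of 21 muscle stem cells, and in 0 of 27 and 1 of 49 endothelial cells, too few to show a difference at this depth. Across smooth muscle cells UMIs and G2M scores had a Spearman correlation of -0.38 in mdx (21 cells) and -0.37 in cKO (54 cells). Across endothelial cells it was -0.42 (105 cells) and -0.39 (170 cells), and across muscle stem cells 0.14 (32 cells) and 0.28 (81 cells). These correlations are given as a description since cells of 1 library share their preparation and depth.

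Phase calls assign S or G2M to any cell with a score above 0. The cells called are thus all those not counted above as having both scores below 0, so the calls add no separate observation. They named S or G2M in 3 of 21 mdx cells, or 14.3% (3.05 to 36.3), and in 6 of 54 cKO cells, or 11.1% (4.19 to 22.6). The S call was made for 2 and 4 of these cells and the G2M call for 1 and 2. Only 2 clusters in mdx and 1 in cKO had a lower share of S or G2M calls. Endothelial cells had 25.7% (17.7 to 35.2) and 20% (14.3 to 26.8), muscle stem cells 43.8% (26.4 to 62.3) and 45.7% (34.6 to 57.1), and all cells 45.4% and 34.4%. Apart from the cKO cell with 16109 UMIs, the smooth muscle cells with such a call had scores of at most 0.109, and a phase call alone is not read here as cycling.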

How the data were processed

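Mononucleated cells of pooled limb and diaphragm muscle were measured by 10x Genomics 3' single cell RNA-seq in 1 mdx and 1 cKO library. Cell Ranger 7 and the mm10 build are listed by the submitters' processing notes, and Seurat by the methods. How reads were aligned is not given in the sources used here. Per cell, the authors' deposited table holds the counts of UMIs and of genes (raw), the mitochondrial fraction of UMIs (multiplied into percent here), an S and a G2M score under Seurat's column names, whose scoring the methods do not describe, a phase call and a cluster number at a resolution of 0.5. Filters described in the methods kept cells of 200 to 1800 genes with no more than 20% mitochondrial UMIs, whereas the deposited cells run from 105 to 7094 genes and end at 9.99%. Every deposited cell was used and no doublets were called. Without counts per gene, cells could not be thinned to 1 depth, so bands of UMIs were used.

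Cells of cluster 19 were compared with clusters 16 and 18. Medians, quartiles, exact intervals and log intervals for ratios came from Python 3.11.15 (pandas 2.3.3, SciPy 1.17.1 and NumPy 2.4.6). Figures were drawn with Matplotlib 3.10.9. The intervals for whole-library shares, for their ratio and for a median were tested on data simulated without variation between mice or libraries. Shares within smaller sets of cells were not simulated. Because each genotype had 1 library, no test was made. No gene was given a value, by the rule that genes are named with values only where a table holds expression. The members, the comparison clusters, the score threshold and the marker lists were chosen with earlier results of these data known. Alternatives were at least 500 genes, at least 1000 UMIs, the limits stated in the methods, the 95% of cells with fewest UMIs, the mean, other thresholds and other denominators.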

Additional observations from a re-analysis of the deposited data

How the results depend on the processing

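Of 178 alternative values for 31 results, 165 were counted as unchanged. They kept their direction and stayed within the 95% interval over cells of the value reported. A ratio of shares was counted there if it kept its direction and its interval excluded 1, or included 1, as for the value reported. For the ratio among smooth muscle and endothelial cells the interval included 1 in every setting. The alternatives reuse the same cells, and intervals over 21 or 54 cells are wide. A value counted among the 165 can therefore lie far from the value reported. The mdx medians of 1469.5 UMIs and 828.5 genes, given below, are counted there. The ratio of cKO to mdx shares over all cells kept its direction, but its interval came to include 1 among cells with at least 500 genes (1.63), over endothelial, muscle stem and smooth muscle cells only (1.33) and, in settings added after seeing the data, among cells with at least 1% mitochondrial UMIs (1.64) and without cluster 6 (1.42). The limits stated in the methods, which end at 1800 genes and so remove the deeper cells, kept 14 of 21 mdx and 31 of 54 cKO smooth muscle cells. They lowered the mdx medians from 3067 to 1469.5 UMIs and from 1482 to 828.5 genes, and gave cKO medians of 1915 UMIs and 949 genes, a smooth muscle share of 31% among vascular cells, a median of UMIs 0.850 times that of muscle stem cells, and 0% of cells with a high score. Dropping the deepest 5% of cells by UMIs removed the single high-scoring cell (0%) and gave 0.806 for UMIs against muscle stem cells in cKO. The mitochondrial median of mdx smooth muscle cells relative to muscle stem cells turned from 0.962 to 1.001 in that setting and to 1.03 with the mean. With 21 and 54 cells, shares of a few percent and small differences of medians were not detectable. No paired analysis was possible because each genotype has 1 library and no test was run.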
